A study of Mus musculus with 12 samples.

Results

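The 9 genes described here are the orphan receptor Gpr161, the 6 measured subunits of cAMP-dependent protein kinase A (PKA), namely Prkar1a, Prkar1b, Prkar2a, Prkar2b, Prkaca and Prkacb, the PKA anchor Akap5 and the cAMP phosphodiesterase Pde4b. They were taken by symbol as genes that act on GLI3 phosphorylation, by a rule that uses no measured value but that was written with earlier results of these data known, and all 9 were found among the 25093 genes of the count table. The study profiled poly(A) RNA of sorted mouse muscle stem cells (satellite cells) with and without the transcription factor GLI3, at rest and after injury, with 3 libraries in each of 4 groups. Quiescent satellite cells (QSCs) came from uninjured hindlimb muscle by a sort for α7-integrin and CD34 and against CD31, CD45, SCA1 and CD11b. Activated satellite cells (ASCs) were sorted with VCAM1 in place of CD34, 3 days after cardiotoxin injury. The library columns of the ASCs carry no genotype, so the comparisons below are between the 6 QSC libraries.

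The control mice were Pax7-CreERT2/+; Gli3+/+; R26R-YFP and the knockout mice Pax7-CreERT2/+; Gli3 fl/fl; R26R-YFP, and are called Gli3+/+ and Gli3-deleted. Both genotypes carried the Pax7-driven, tamoxifen-inducible Cre and the YFP reporter, both received tamoxifen, and mice were 3 to 4 months old on a mixed 129SV and C57BL/6 background. Cre removes exon 8 of Gli3, and only in cells that express Pax7. Each QSC library pooled 2 to 3 mice, so the spread between libraries is a spread between pools. Isolation by flow sorting itself partly activates satellite cells.

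GPR161 sits in the membrane of the primary cilium and couples to the G protein that stimulates adenylyl cyclase, so that it keeps ciliary cAMP high while Hedgehog ligand is absent. cAMP binds the regulatory subunits of PKA and frees the catalytic subunits, which phosphorylate GLI3 and mark it for further phosphorylation by GSK3 and casein kinase 1 and for cleavage to its repressor form. Anchoring proteins place PKA near its substrates, and phosphodiesterases limit the signal by degrading cAMP. Quiescent satellite cells carry a primary cilium, which is lost when they enter the cell cycle.

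Levels are given as CPM, counts per 1000000 counts of the library after TMM scaling, and genes are compared with each other only as CPM per kilobase of exon. Depth was 39556784 to 65750131 estimated counts per library. The satellite cell marker Pax7 was at 884 to 1052 CPM in Gli3+/+ and 798 to 1157 CPM in Gli3-deleted QSCs, while the leukocyte gene Ptprc (CD45), which the sort selects against, was at 0.252 to 2.11 CPM across the 6 libraries. Of the other genes the sort selects against, Itgam (CD11b) was at 0 to 1.54 CPM, Ly6a (SCA1) at 4.21 to 8.34 CPM and Pecam1 (CD31) at 22.5 to 40.1 CPM. The 10 satellite cell markers summed to 4089 to 6570 CPM in Gli3+/+ and 4368 to 4809 CPM in Gli3-deleted QSCs, and none of them was at 0 in every library. The sum of 6570 CPM was that of Gli3+/+ replicate 3, where Sdc4 was at 2714 CPM, against 891 to 1401 CPM in the other libraries. The 8 fibro-adipogenic markers summed to 4262 to 6712 CPM in Gli3+/+ and 5465 to 6083 CPM in Gli3-deleted QSCs, with overlap. The 8 myofiber markers summed to 61.3 to 121 CPM in Gli3+/+ and 149 to 189 CPM in Gli3-deleted QSCs, without overlap. Within this sum, Actn3 alone was at 15.4 to 59.1 CPM and 99.3 to 117 CPM, respectively. Of the 8, 3 did not overlap between groups (against 13.0% of all genes), whereas Ckm and Acta1 did. The 8 endothelial markers had lower means in Gli3-deleted QSCs for 7 genes, while 54.0% of all genes were lower. For 4 of the 8 mural cell markers the unadjusted p was under 0.05 by edgeR, against 7.11% of all genes. Of these 4, Myh11, Rgs5 and Abcc9 were lower and Cspg4 was higher in Gli3-deleted QSCs. The part of these cell types in the results below was not tested. Gene-level Gli3 was 10.2 ± 0.864 CPM (SD, n = 3) in Gli3+/+ and 8.77 ± 2.23 CPM (n = 3) in Gli3-deleted QSCs, a log2 fold change of -0.22 ± 0.22 (SE) with an adjusted p of 0.916 by edgeR's quasi-likelihood test. Counts over the whole gene include the exons that the deletion leaves in place, so they do not check the genotype labels. Gli3+/+ replicate 3 stood apart from the other Gli3+/+ libraries, with a chi-square statistic per gene of 201 and 223 against them, compared with 85.9 between those other 2 and 75.6 to 105 among Gli3-deleted libraries. Some results in which Gli3+/+ replicate 3 is the extreme library are also given without it. Others that leaving it out moved are not.

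Of the 9 genes, 0 passed the test for a difference between Gli3-deleted and Gli3+/+ QSCs, an adjusted p under 0.05 with a fold change of at least 1.2 in edgeR. Over all 25093 genes, 0.351% passed (88 genes, 47 higher and 41 lower in Gli3-deleted cells). By DESeq2 the count was also 0 of 9, against 1.53% of all genes, and by limma-voom 0 of 9, against 73 genes in all. At an unadjusted p under 0.05 the count was again 0 of 9, against 7.11% of all genes. The groups did not overlap for 1 of the 9 genes, Prkar2a, against 13.0% of all genes, so this share of the set was close to the background. In the fit, 5 log2 fold changes were above 0 and 4 below it, with a median of 0.01 over the 9 genes and of -0.03 over all genes.

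**Figure D1:**
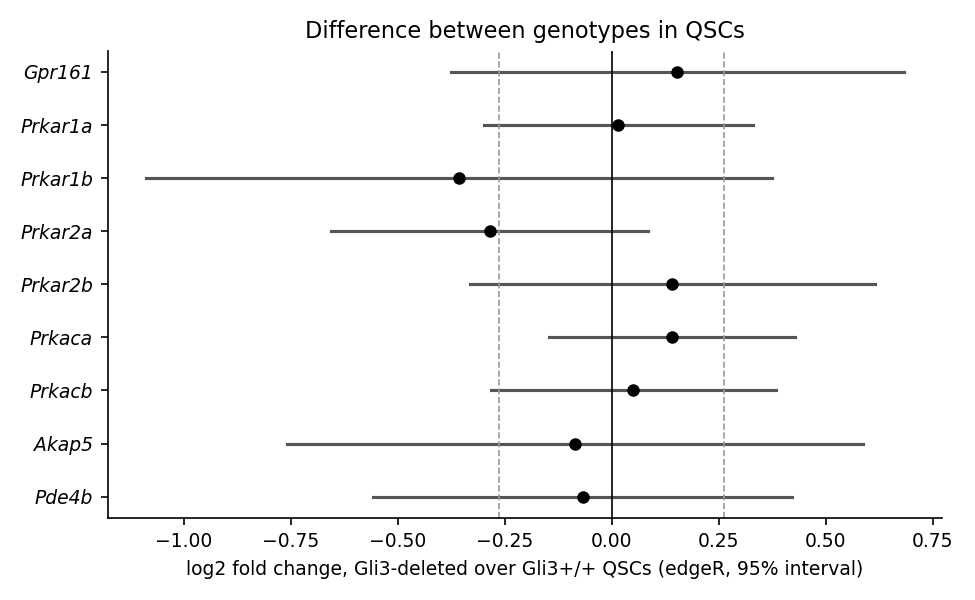
Log2 fold change of each gene between Gli3-deleted and Gli3+/+ QSCs (x axis) with its 95% confidence interval from edgeR (3 libraries per genotype); the dashed lines mark a fold change of 1.2 in either direction. All 9 intervals include 0; the widest, that of Prkar1b, runs from -1.09 to 0.37 and the narrowest, that of Prkaca, from -0.15 to 0.43.

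The precision of these estimates differed between the genes. For 8 of the 9, the 95% interval lay within a 2-fold difference in either direction, and for 4 of them within a 1.5-fold difference. Only the interval of Prkar1b reached past 2-fold. In bulk RNA, fewer cells of a type and less RNA per cell cannot be told apart, and this holds for every level below.

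With the union of a gene's exons as its length, the levels of the 9 genes spanned from 122 CPM per kb for Prkar1a to 0.312 CPM per kb for Akap5, as means over the 6 libraries. The order was Prkar1a, Pde4b, Prkaca, Prkacb, Prkar2b, Prkar2a, Gpr161, Prkar1b and Akap5. Neighbours kept that order in 6 of 6 libraries with 2 exceptions: Prkar2b was above Prkar2a in 4 of 6 and Prkar1b above Akap5 in 3 of 6, so these 2 pairs were not ordered beyond their spread. The order within 3 pairs depended on the length used. With the longest transcript as the length, an alternative chosen after seeing the data, Pde4b was above Prkar1a (157 against 150 CPM per kb), Prkacb above Prkaca (27.3 against 25.5) and Prkar2a above Prkar2b (10.2 against 8.61). Prkar1a was then above Pde4b in 2 of 6 libraries and Prkaca above Prkacb in 3 of 6, so with that length neither pair was ordered beyond its spread. By exon length, among all measured genes, Prkar1a lay at the 98.7th percentile of level per kb, Pde4b at the 97.7th, Prkaca at the 92.6th, Gpr161 at the 58.8th and Akap5 at the 34.9th.

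**Figure D2:**
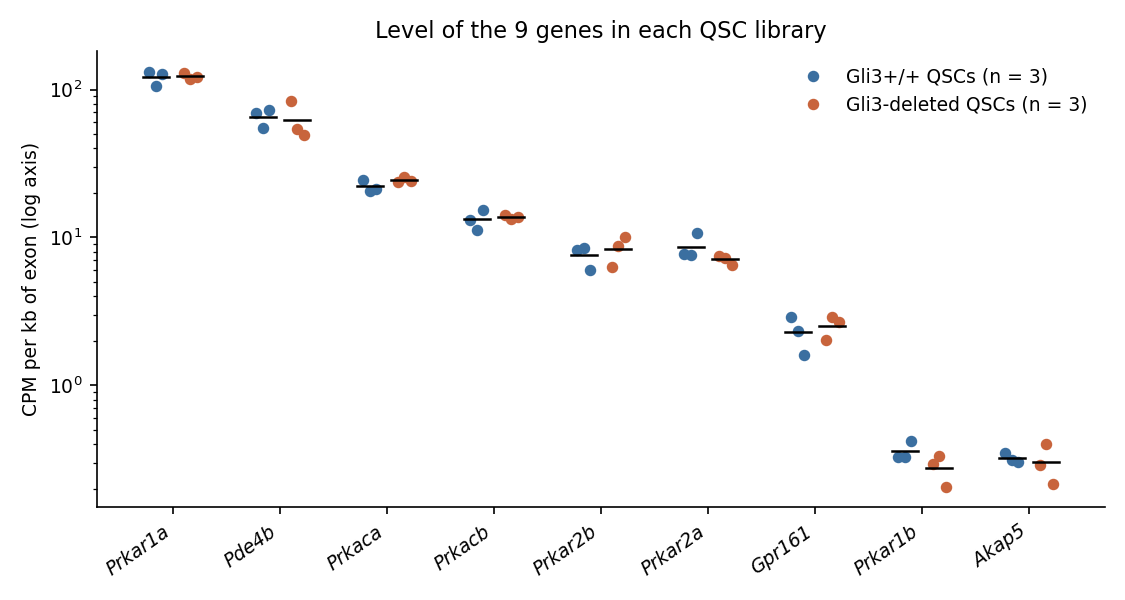
Level of each of the 9 genes in CPM per kb of exon (log axis) in the 3 Gli3+/+ (blue) and 3 Gli3-deleted (orange) QSC libraries; each point is a library and each bar a group mean. On this scale Prkar1a and Pde4b lie above all other members in every library, and the genotypes overlap for each gene except Prkar2a.

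Gpr161 (ENSMUSG00000040836.15, GRCm38 chr1:165295789-165326745, plus strand), the receptor that heads this branch, was at 20.1, 16.3 and 11.2 CPM in Gli3+/+ replicates 1, 2 and 3 and at 14.2, 20.2 and 18.6 CPM in Gli3-deleted replicates 1, 2 and 3. The lowest value of either genotype was that of Gli3+/+ replicate 3, and the groups overlapped. The means were 15.9 ± 4.47 CPM (SD, n = 3) and 17.7 ± 3.08 CPM (n = 3), a log2 fold change of 0.15 ± 0.23 (SE; 95% interval -0.38 to 0.68; adjusted p = 0.949). Without Gli3+/+ replicate 3 the sign turned, to -0.04 with an adjusted p of 0.986.

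The regulatory subunits hold PKA inactive by placing a stretch that resembles a substrate in the catalytic cleft. In the type I subunits this stretch has a small residue where a substrate would be phosphorylated, and in the type II subunits it has a serine, which the catalytic subunit can phosphorylate. The coding bases around that position are shown because they set the 4 regulatory genes apart by type; the capitals mark the codon of that position, read 5′ to 3′ from GENCODE transcripts on GRCm38.
Prkar1a: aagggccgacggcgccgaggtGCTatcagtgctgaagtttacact
Prkar1b: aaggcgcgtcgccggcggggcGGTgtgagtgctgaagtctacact
Prkar2a: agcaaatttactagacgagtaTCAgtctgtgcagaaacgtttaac
Prkar2b: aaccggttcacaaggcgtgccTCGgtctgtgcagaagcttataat
The marked codon is number 99 in Prkar1a (alanine; exon 3 of 11, chr11:109660095-109660139 for the printed bases, plus strand) and number 99 in Prkar1b (glycine; exon 3 of 11, chr5:139108514-139108558, minus strand). It is number 97 in Prkar2a (serine; exon 2 of 11, plus strand) and number 112 in Prkar2b (serine; exon 2 of 12, minus strand). In both type II genes the printed bases run on into the next exon, from chr9:108714284 to 108716882 for Prkar2a and from chr12:31993764 to 32038646 for Prkar2b. Within types, Prkar1a and Prkar1b share 34 of the 45 bases and Prkar2a and Prkar2b share 30, whereas pairs across types share 17 to 23.

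Prkar1a (ENSMUSG00000020612.16, chr11:109649405-109669656, plus strand), which encodes the type I alpha regulatory subunit RIα, was at 572, 454 and 547 CPM in Gli3+/+ QSCs and at 556, 507 and 527 CPM in Gli3-deleted QSCs. All 3 Gli3-deleted values lay inside the range of the Gli3+/+ values. The means were 524 ± 62.3 CPM (n = 3) and 530 ± 24.2 CPM (n = 3), a log2 fold change of 0.01 ± 0.14 (SE; 95% interval -0.30 to 0.33; adjusted p = 1.0 by edgeR). Prkar1a had the highest level per kb of exon of the set, and the second highest, after Pde4b, with longest-transcript lengths.

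Prkar1b (ENSMUSG00000025855.13, chr5:139017306-139150001, minus strand) encodes RIβ, the type I subunit best known from neurons. It was at 1.24, 1.24 and 1.60 CPM in Gli3+/+ and at 1.13, 1.27 and 0.787 CPM in Gli3-deleted QSCs, from 40 to 85 estimated counts per library, and the groups overlapped. The log2 fold change was -0.36 ± 0.32 (SE; 95% interval -1.09 to 0.37; adjusted p = 0.907), and leaving out single libraries moved it between -0.51 and -0.18. The predicted gene Gm15672, at a mean of 0.529 CPM, lies across Prkar1b on the same strand, so how reads divide between them is uncertain. Markers of Schwann cells, the glia of muscle nerves, were also examined. Of the 10 markers, 7 had a lower mean in Gli3-deleted QSCs, while 54.0% of all genes were lower. For 6 the groups did not overlap (against 13.0% of all genes). By edgeR's test 0 passed (against 0.351% of all genes), and 3 passed that of DESeq2 (against 1.53% of all genes). Their sum was 448 to 621 CPM in Gli3+/+ and 372 to 519 CPM in Gli3-deleted QSCs, none was at 0 in every library, and their part in the Prkar1b values was not tested.

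Prkar2a (ENSMUSG00000032601.13, chr9:108689314-108750436, plus strand), which encodes RIIα, was at 49.6, 48.6 and 68.1 CPM in Gli3+/+ and at 48.2, 46.6 and 41.6 CPM in Gli3-deleted QSCs. Every Gli3-deleted library was below every Gli3+/+ library, but the nearest values of the 2 groups were 48.6 and 48.2 CPM and the highest value was that of Gli3+/+ replicate 3. The means were 55.4 ± 11.0 CPM (n = 3) and 45.5 ± 3.42 CPM (n = 3), a log2 fold change of -0.29 ± 0.16 (SE; 95% interval -0.66 to 0.09). This did not pass the test (unadjusted p = 0.115, adjusted p = 0.823 by edgeR; adjusted p = 0.924 by DESeq2). Without Gli3+/+ replicate 3 the log2 fold change was -0.11, with an adjusted p of 0.879.

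Prkar2b (ENSMUSG00000002997.15, chr12:31958476-32061296, minus strand), which encodes RIIβ, was at 30.2, 30.8 and 21.9 CPM in Gli3+/+ and at 22.9, 31.9 and 36.7 CPM in Gli3-deleted QSCs. As for Gpr161, Gli3+/+ replicate 3 and Gli3-deleted replicate 1 were the lowest libraries of their groups. The log2 fold change was 0.14 ± 0.21 (SE; 95% interval -0.33 to 0.61; adjusted p = 0.946 by edgeR), and it was -0.0006 without Gli3+/+ replicate 3.

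Prkaca (ENSMUSG00000005469.10, chr8:83972993-83996443, plus strand) and Prkacb (ENSMUSG00000005034.15, chr3:146729574-146812990, minus strand) encode the catalytic subunits Cα and Cβ, which transfer the phosphate to GLI3 and other substrates. Prkaca was at 60.9, 51.7 and 53.0 CPM in Gli3+/+ and at 58.7, 63.4 and 60.4 CPM in Gli3-deleted QSCs. Prkacb was at 116, 98.7 and 136 CPM in Gli3+/+ and at 125, 117 and 120 CPM in Gli3-deleted QSCs. The groups overlapped for both genes. For Prkaca the log2 fold change was 0.14 ± 0.13 (SE; 95% interval -0.15 to 0.43; adjusted p = 0.907), and for Prkacb it was 0.05 ± 0.15 (SE; 95% interval -0.28 to 0.38; adjusted p = 0.985), both by edgeR. Without Gli3+/+ replicate 3, its highest library, the log2 fold change of Prkacb was 0.17 (adjusted p = 0.797 by edgeR). Per kb of exon Prkaca was the higher of the pair in 6 of 6 libraries, by 1.72-fold in the mean, although Prkacb drew more reads. With longest-transcript lengths the ratio of the means was 0.933, and Prkaca was the higher in 3 of 6 libraries, so which of the 2 catalytic genes led was not settled.

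The make-up of the PKA subunit transcripts was then compared within libraries, as shares of CPM per kb. Prkar1a took 86.5% to 90.1% of the regulatory transcripts in the 6 libraries, with means of 87.9% ± 1.26 (SD, n = 3) in Gli3+/+ and 88.6% ± 1.31 (n = 3) in Gli3-deleted QSCs. Prkar2a took 6.31% ± 1.11 and 5.15% ± 0.399, Prkar2b 5.56% ± 1.38 and 6.06% ± 1.49, and Prkar1b 0.260% ± 0.0376 and 0.202% ± 0.0502, respectively. Type I transcripts thus came almost entirely from Prkar1a, whose level per kb was 384 times that of Prkar1b. Prkaca took 62.6% ± 4.05 of the catalytic transcripts in Gli3+/+ and 64.0% ± 1.69 in Gli3-deleted QSCs by exon length, and 47.6% ± 4.25 and 49.0% ± 1.83 (n = 3 each) by longest transcript, so that its majority rests on the length used. By exon length, the Prkaca share differed by 1.355 points (Gli3-deleted minus Gli3+/+). Without Gli3+/+ replicate 3, its lowest library, the sign turned, to -0.983 points. The share of Prkar1a was 87.0% to 90.3% by longest transcript.

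The ratio of regulatory to catalytic transcripts per length was 3.95, 3.79 and 3.91 in Gli3+/+ and 3.76, 3.45 and 3.66 in Gli3-deleted QSCs. Each Gli3-deleted library was below each Gli3+/+ library, with means of 3.62 ± 0.160 and 3.89 ± 0.0820 (SD, n = 3 each). In the two-sided exact permutation test this gave p = 0.1, the smallest that 3 against 3 libraries allow, and p = 0.6 after adjustment over the 6 shares and ratios tested. For the 5 shares the exact permutation p ranged from 0.2 to 0.8. Without division by length the exact permutation p of the ratio was 0.2.

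**Figure D3:**
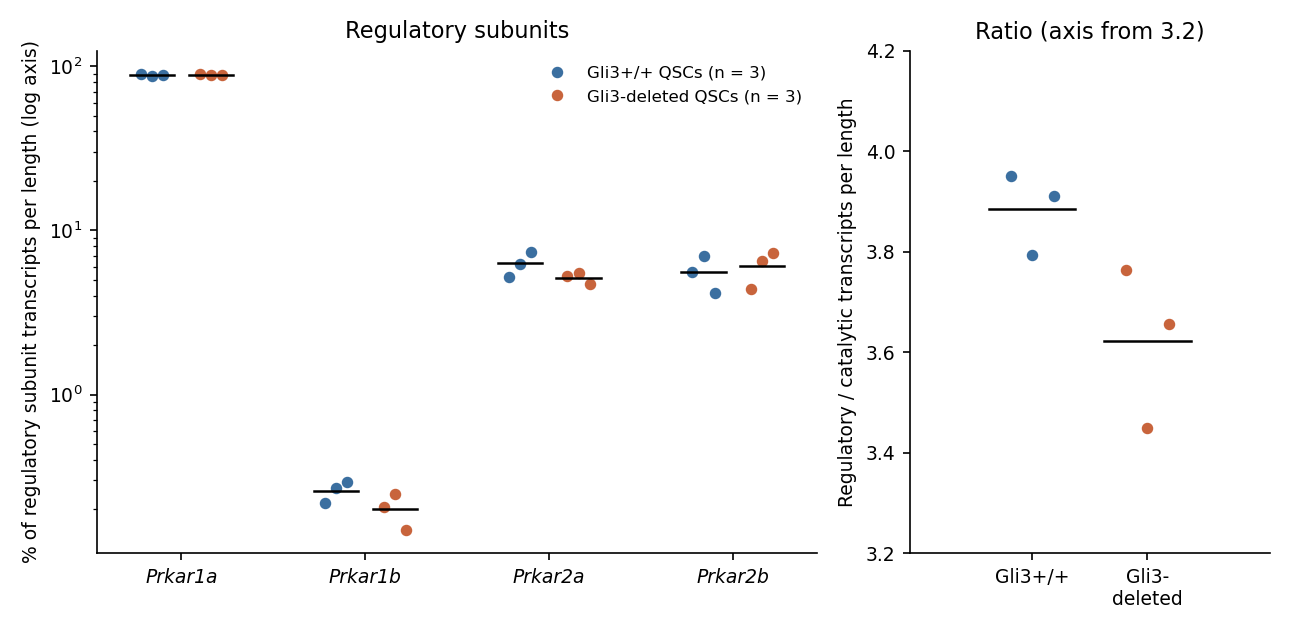
Left, share of each regulatory subunit among regulatory transcripts per length (%, log axis); right, ratio of regulatory to catalytic transcripts per length (linear axis that starts at 3.2), in 3 Gli3+/+ (blue) and 3 Gli3-deleted (orange) QSC libraries, with bars at the means. Prkar1a holds 86.5% to 90.1% in every library, and the ratio is 3.79 to 3.95 in Gli3+/+ and 3.45 to 3.76 in Gli3-deleted libraries.

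Akap5 (ENSMUSG00000021057.15, chr12:76324891-76334153, plus strand) encodes an anchor that holds type II PKA at the plasma membrane together with the phosphatase calcineurin. It was at 2.38, 2.13 and 2.06 CPM in Gli3+/+ and at 1.97, 2.75 and 1.48 CPM in Gli3-deleted QSCs, from 75 to 184 estimated counts per library. The Gli3-deleted values lay on both sides of the Gli3+/+ values, and the log2 fold change was -0.09 ± 0.30 (SE; 95% interval -0.76 to 0.59; adjusted p = 0.989 by edgeR). Among the 12 measured anchors of a list of 16, Akap5 ranked 11th by level per kb. The nuclear anchors Akap8 and Akap8l were the highest, at 23.2 and 22.8 CPM per kb.

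Pde4b (ENSMUSG00000028525.16, chr4:102087543-102607259, plus strand) encodes a cAMP-specific phosphodiesterase that cAMP signaling itself is known to induce, hence its place as a brake. It was at 730, 578 and 763 CPM in Gli3+/+ and at 883, 571 and 520 CPM in Gli3-deleted QSCs. Both the highest and the lowest value were those of Gli3-deleted libraries, so the spread within that genotype exceeded the difference between genotypes. The means were 690 ± 98.9 CPM (n = 3) and 658 ± 196 CPM (n = 3), a log2 fold change of -0.07 ± 0.22 (SE; 95% interval -0.56 to 0.42; adjusted p = 0.987 by edgeR). Pde4b ranked 1st of the 15 measured cAMP phosphodiesterases, at 63.9 CPM per kb against 19.3 CPM per kb for the next, Pde3a. With longest-transcript lengths Pde4b was again 1st, at 157 CPM per kb, with Pde7b next at 33.4 CPM per kb and Pde3a 5th.

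**Figure D4:**
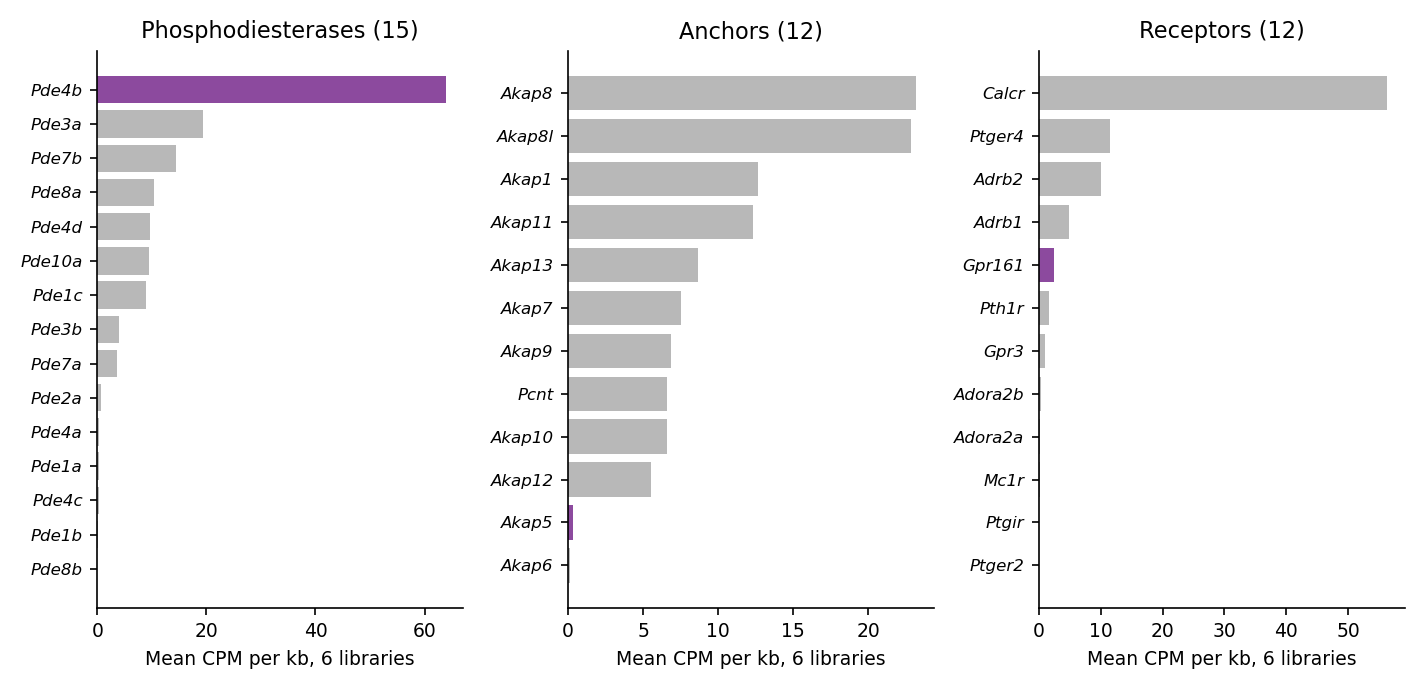
Mean level in CPM per kb over the 6 QSC libraries (x axes, linear, each with its own scale) of the measured phosphodiesterases, anchors and cAMP-raising receptors, with Pde4b, Akap5 and Gpr161 in purple and other genes in grey. Pde4b leads its list at 63.9 CPM per kb, Akap5 ranks 11th of 12 and Gpr161 5th of 12.

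The other genes of the pathway were taken in lists by role, 107 measured genes in all with the 9 above. Of these 107, 0 passed edgeR's test for a genotype difference, against 0.351% of all genes. By DESeq2 0 passed, against 1.53% of all genes, and by limma-voom 0 passed, against 73 genes in all. At an unadjusted p under 0.05 there were 8 of 107 (7.48%, against 7.11% of all genes), and the groups did not overlap for 15 (14.0%, against 13.0% of all genes), 10 of them lower and 5 higher in Gli3-deleted QSCs. The median log2 fold change was -0.08, against -0.03 over all genes, and the lowest adjusted p in edgeR was 0.375, for Sik1.

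Upstream of cAMP, Gpr161 ranked 5th of 12 receptors that raise cAMP by level per kb. The calcitonin receptor Calcr, a known regulator of satellite cell quiescence, was the highest at 56.4 CPM per kb, 23.4 times the level of Gpr161, followed by the prostaglandin receptor Ptger4 at 11.4 CPM per kb. Calcr was at 259, 213 and 129 CPM in Gli3+/+ and at 263, 231 and 227 CPM in Gli3-deleted QSCs (log2 fold change 0.26, adjusted p = 0.903 by edgeR), again with Gli3+/+ replicate 3 as the lowest library. Without that library its log2 fold change was 0.03 (adjusted p = 0.988). Of the 12 receptors, 5 had higher and 7 lower means in Gli3-deleted cells, and 5 were below 1 CPM. At an unadjusted p under 0.05 by edgeR there were 0 of 12, against 7.11% of all genes.

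Among G protein alpha subunits, Gnas, which encodes the stimulatory subunit Gαs through which GPR161 acts, was at 3797, 3237 and 3671 CPM in Gli3+/+ and at 3859, 4314 and 4017 CPM in Gli3-deleted QSCs. The groups did not overlap, but the difference did not pass the test (log2 fold change 0.19, unadjusted p = 0.183, adjusted p = 0.876 by edgeR). The inhibitory subunit gene Gnai1 differed by 0.51 on the log2 scale (adjusted p = 0.702) and Gnao1 by -0.29 (adjusted p = 0.683), both without overlap. Over the 7 subunits, 5 means were higher, and the median log2 fold change was 0.17.

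The cyclases that make cAMP were led by Adcy7 at 25.4 and Adcy2 at 21.4 CPM per kb. Adcy2 was at 77.3, 88.0 and 81.0 CPM in Gli3+/+ and at 97.6, 100 and 95.5 CPM in Gli3-deleted QSCs, with no overlap and a log2 fold change of 0.25 (adjusted p = 0.745 by edgeR). Adcy4, a cyclase of low level here, had the lowest p of the 10 cyclases (log2 fold change -0.87, unadjusted p = 0.0397, adjusted p = 0.668). The means of 5 cyclases were higher and those of 5 lower.

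Genes for the ciliary entry and exit of GPR161 were measured for 11 products. Grk2, the kinase that starts the removal of GPR161 from the cilium, was at 123, 113 and 139 CPM in Gli3+/+ and at 103, 104 and 93.7 CPM in Gli3-deleted QSCs. The groups did not overlap, and the log2 fold change of -0.31 had an unadjusted p of 0.0430 and an adjusted p of 0.677 by edgeR. Without Gli3+/+ replicate 3, its highest library, the log2 fold change of Grk2 was -0.23 (unadjusted p = 0.0754, adjusted p = 0.674 by edgeR). For Arrb1, a beta-arrestin that acts after it, the log2 fold change was 0.23 (adjusted p = 0.854), and for Ift43, a part of the retrograde transport complex, it was 0.28 (adjusted p = 0.839). Tulp3, the adapter that carries GPR161 into the cilium, was at 52.4 to 67.9 CPM in Gli3+/+ and at 51.3 to 64.1 CPM in Gli3-deleted QSCs.

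On the side of cAMP removal, 4 of the 15 phosphodiesterases had higher and 11 lower means in Gli3-deleted QSCs. Of all genes, 54.0% were lower. The median log2 fold change of the phosphodiesterases was -0.17. Pde4d, like Pde4b a cAMP-specific enzyme, was at 140, 131 and 128 CPM in Gli3+/+ and at 101, 105 and 97.5 CPM in Gli3-deleted QSCs. The gap between the groups was wider than the range of either, and the log2 fold change was -0.39 ± 0.12 (SE), but it did not pass after adjustment over all genes (unadjusted p = 0.00994, adjusted p = 0.427 by edgeR and 0.148 by DESeq2). For Pde8a, also without overlap, the log2 fold change was -0.34 (unadjusted p = 0.0343, adjusted p = 0.652).

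Of the anchors, 11 of 12 had lower means in Gli3-deleted QSCs, while 54.0% of all genes were lower. The median of the 12 log2 fold changes was -0.14. The groups overlapped for each of the 12, and 0 had an unadjusted p under 0.05 by edgeR, against 7.11% of all genes. Akap12, a scaffold of the cell cortex, had the lowest p (log2 fold change -0.38, adjusted p = 0.793; -0.57 and 0.170 without Gli3+/+ replicate 3), followed by Pcnt, a centrosome protein that also binds PKA (log2 fold change -0.18, adjusted p = 0.905). Among the 3 inhibitor peptides of PKA, Pkia was the highest at 7.67 CPM per kb, with means of 26.4 ± 5.50 and 30.7 ± 3.80 CPM (n = 3 each). Its log2 fold change was 0.22 (adjusted p = 0.895 by edgeR).

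Downstream, the kinases that act on GLI3 after PKA were led by Csnk1d at 62.3 CPM per kb, followed by Gsk3a at 30.1 and Csnk1a1 at 29.6 CPM per kb. With longest-transcript lengths Csnk1a1 was at 76.2 and Gsk3a at 38.6 CPM per kb. Gsk3a was at 86.1, 88.4 and 90.7 CPM in Gli3+/+ and 85.0, 85.1 and 88.0 CPM in Gli3-deleted QSCs. For the 8 kinases, the groups overlapped in each case and the median log2 fold change was -0.04. Csnk1g1 had the lowest p of them (log2 fold change -0.25, adjusted p = 0.827 by edgeR).

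cAMP also acts on proteins other than PKA. Of these 5 genes, 4 had lower means in Gli3-deleted QSCs, while 54.0% of all genes were lower. The groups did not overlap for 3 of the 5, against 13.0% of all genes. Popdc3, which encodes a cAMP-binding membrane protein of striated muscle, was at 12.1, 12.2 and 16.4 CPM in Gli3+/+ and at 9.10, 9.10 and 10.8 CPM in Gli3-deleted QSCs (log2 fold change -0.49, unadjusted p = 0.0269, adjusted p = 0.604 by edgeR; -0.33 and an adjusted p of 0.678 without Gli3+/+ replicate 3). Rapgef3, which encodes the exchange factor EPAC1, differed by -0.57 on the log2 scale (unadjusted p = 0.0339, adjusted p = 0.650). Popdc2 had the highest level of the 5 per length, at 30.6 CPM per kb, and a higher mean in Gli3-deleted cells (log2 fold change 0.12).

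PKA activates the transcription factor CREB, so the genes of CREB, its coactivators and its usual targets were included as a transcript readout. Of the 8 factors and coactivators, 7 had lower means in Gli3-deleted QSCs (median log2 fold change -0.14), and all 8 overlapped between groups. Of the 13 targets, 4 had higher and 9 lower means, with a median of -0.12. For comparison, 54.0% of all genes were lower. Sik1, a kinase that cAMP induces and that restrains the CREB coactivators, was at 916, 689 and 1102 CPM in Gli3+/+ and at 611, 599 and 464 CPM in Gli3-deleted QSCs. The groups did not overlap, and the log2 fold change of -0.69 ± 0.20 (SE) had the lowest p of the pathway (unadjusted p = 0.00663), which did not pass after adjustment (0.375 by edgeR, 0.0838 by DESeq2). Without Gli3+/+ replicate 3, its highest library, the log2 fold change of Sik1 was -0.52 (adjusted p = 0.468 by edgeR). Fos was at 7552 ± 928 and 6961 ± 420 CPM and Nr4a1 at 1764 ± 391 and 1395 ± 256 CPM (n = 3 each), both with overlap. Fos and other targets on this list also respond to cell isolation: the 10 genes of a dissociation response list summed to 42500 to 59260 CPM in Gli3+/+ and to 41960 to 46520 CPM in Gli3-deleted QSCs. Of these 10, 9 had a lower mean in Gli3-deleted QSCs, while 54.0% of all genes were lower. For 1 of them, Junb, the groups did not overlap, against 13.0% of all genes. The part of this response in the values of the CREB targets was not tested.

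**Figure D5:**
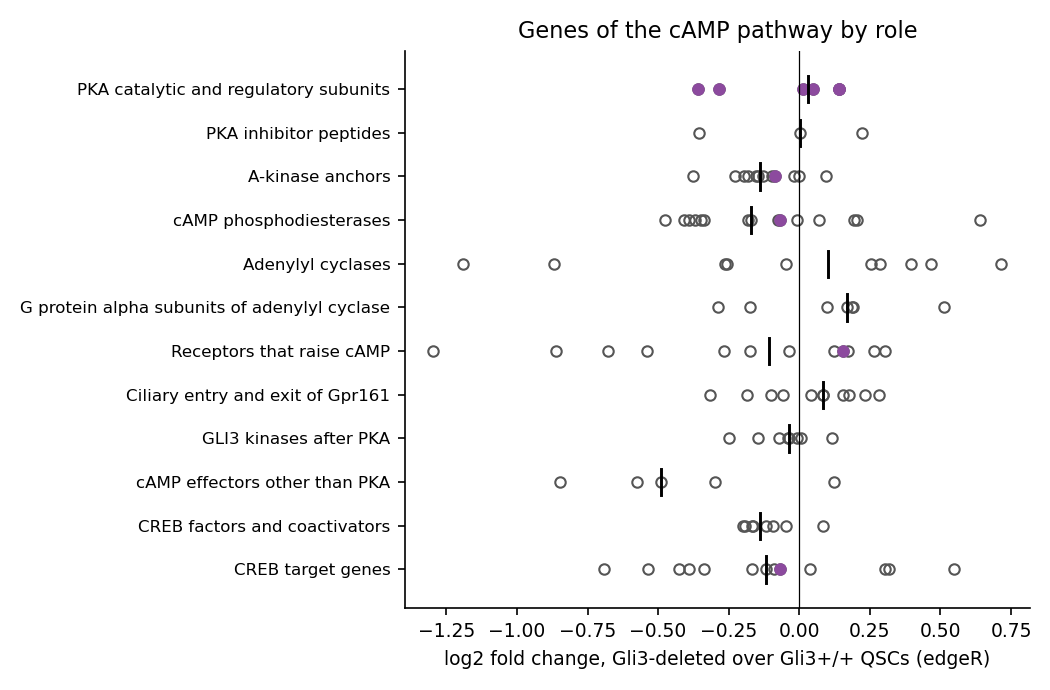
Log2 fold change between Gli3-deleted and Gli3+/+ QSCs (x axis, edgeR) of each measured gene of the cAMP pathway, in rows by role; purple points are the 9 genes of the set, open circles are other genes, and the vertical bars mark the median of each row. A gene on more than 1 list appears in each row; the row medians run from -0.49 for the effectors other than PKA to 0.17 for the G protein alpha subunits.

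The values across libraries were also used to find the genes with the most similar profile, as the Pearson correlation of log2(CPM + 1) over the 6 QSC libraries among 10401 protein-coding genes at a mean of 5 CPM or more. For Gpr161 these were Mtss2 (r = 0.999), Map3k4 (r = 0.997) and Vamp5 (r = 0.996), for Prkar1b Eea1 (r = 0.991) and Zfp280d (r = 0.989), and for Pde4b Mapk8 (r = 0.997), Gcc1 (r = 0.993) and Taf7 (r = 0.987). These are the highest of many correlations over few points that share libraries, and they are given as a description only. Gpr161 and Mtss2 share Gli3+/+ replicate 3 as the library of their lowest value.

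The deposited comparison tables also hold the authors' mean of normalized counts over all 12 libraries, QSCs and ASCs of both genotypes together, which has no spread and no count of its own. Rescaled to CPM, this mean was 368 for Pde4b against 673 in the pooled QSC counts, a ratio of QSCs to the authors' mean of 1.83. For Prkar2b the ratio was 0.359, for Prkar1b 0.668, for Gpr161 0.914, for Prkar1a 1.01 and for Prkacb 1.07. Over the 14696 genes at a mean of 1 CPM or more, the median ratio was 1.02, with the 10th percentile at 0.497 and the 90th at 1.59. Pde4b lay at the 96.5th and Prkar2b at the 5.38th percentile of these genes. The 2 scales were normalized differently and the authors' mean contains the QSC libraries, so the ratios are descriptive and untested.

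The promoters of the set were searched for the cAMP response element that CREB binds, TGACGTCA, in RefSeq windows of 250 bases before to 50 bases after each annotated start (GRCm38.p6; 26 windows for the 9 genes). The first windows of Pde4b and Prkar2a began at chr4:102421305 and chr9:108691893, inside these genes, so the gene starts given above for them were not searched. In the windows searched, Prkar1a alone of the 9 genes held the full element. This single site lies in the windows of 2 of its starts, 49 bases before one and 38 after the other. It is shown with its flanks because it is the only full element in the windows searched for the set. Capitals mark it within chr11:109650860-109650947, plus strand.
Prkar1a: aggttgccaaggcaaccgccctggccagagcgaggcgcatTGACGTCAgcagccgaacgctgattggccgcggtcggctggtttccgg
The element was present in 2 of the 26 windows of the set and in 1.79% of all 32851 promoter windows. The shorter element TGACG, which the full element contains on both strands, occurred in 8 of the 26 windows, for Pde4b, Prkaca, Prkacb, Prkar1a, Prkar1b and Prkar2a, against 20.8% of all windows. The GLI motif TGGGTGGTC, searched on both strands, was in 0 of the 26 windows and in 0.253% of all windows. A match of letters is not evidence of binding.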

How the data were processed

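RNA of sorted satellite cells was measured in 12 libraries, 3 per group. Per the labels and the study's methods, the authors made poly(A) libraries from 20 ng of RNA with a strand-marking kit, quantified transcripts with salmon 0.13.1 on GRCm38 and GENCODE vM19, summed them to genes with tximport, and kept genes with at least 5 reads in at least 2 samples. The deposited table holds estimated counts per gene (49.2% of values not whole), which were rounded before testing. The 4 deposited comparison tables hold the authors' DESeq2 results (shrunken log2 fold changes, standard errors and p-values), which were not used, and the authors' mean signal per gene, a mean of normalized counts over 12 libraries. The 6 ASC columns match no label and were not used, so 3 planned comparisons (activation, deletion in ASCs and their interaction) were not run; the design, written for all libraries, was fitted on 6.

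Counts were tested with edgeR 4.0.16 (TMM, quasi-likelihood test over all 25093 genes, Benjamini-Hochberg adjustment; R 4.3.3); the alternatives were limma-voom with weighted samples (limma 3.58.1), DESeq2 1.42.0, other size factors, count filters, a replicate block and each library left out. Each test was tested on simulated data with 200 genes changed. Levels per kb used exon unions of GENCODE vM21, with the longest transcript as an alternative (25080 genes with a length, 96.3% with the same ID version). Shares and ratios used a two-sided exact permutation test. The likeness measure used a pseudocount of 1. Named genes are the 9 members and, per list, those called or otherwise the 2 of highest level per length and the 2 of lowest p, with further genes named for their role; for 3 members, the 3 most similar genes; some genes that fall under these rules are not reported here. Members and lists were chosen with earlier results of these data known. Protein sequences were not used here.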

Additional observations from a re-analysis of the deposited data

How the results depend on the processing

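No gene of the set and no pathway gene passed the test under any alternative run (0 of 9, and 0 of the pathway genes tested, which were 107 except for 105 with edgeR's expression filter and 99 with at least 10 counts in every library). Of 108 log2 fold changes of members under alternatives, 98 kept their sign; the other 10 came from leaving out 1 library, which moved Gpr161 from -0.0433 (without Gli3+/+ replicate 3) to 0.36, Prkar1a from -0.0729 (without Gli3+/+ replicate 2) to 0.0822, Prkar2b from -0.014 (without Gli3-deleted replicate 3) to 0.31, Prkacb from -0.0502 (without Gli3+/+ replicate 2) to 0.17, Akap5 from -0.35 to 0.10 (without Gli3-deleted replicate 3) and Pde4b from -0.34 to 0.0754 (without Gli3-deleted replicate 3). The sign also turned for Prkar2b (-0.0006) and Pde4b (0.01) without Gli3+/+ replicate 3, for Prkar1a (-0.02) without Gli3-deleted replicate 1 and for Pde4b (0.02) without Gli3-deleted replicate 2. Prkar1b, Prkar2a and Prkaca kept their sign throughout. Leaving out single libraries moved the difference between genotypes from -0.043 to 1.28 points for the Prkar1a share, -0.08 to -0.03 for Prkar1b, -1.70 to -0.59 for Prkar2a, -0.19 to 1.33 for Prkar2b and -0.98 to 2.55 for Prkaca, and from -0.33 to -0.18 for the regulatory to catalytic ratio.

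Over all genes, 88 were called; DESeq2 called 384, a minimum of 10 counts in every library left 48 (16759 genes tested), and leaving out single libraries gave 58 to 103, with 58 without Gli3-deleted replicate 3. The causes were not tested. With the replicate number as a replicate block, 79 genes and 0 of the 9 were called, and the exact permutation p of the ratio was 0.25. Same-numbered libraries did not deviate together (correlations of -0.28, -0.02 and -0.06, against -0.24 to 0.33 for other pairs). With 3 libraries per group, these correlations cannot settle whether same-numbered libraries share a batch. With the longest transcript as length, the ratio of levels per kb was 0.958 for Prkar1a over Pde4b (1.91 by exon length), 0.933 for Prkaca over Prkacb (1.72) and 0.847 for Prkar2b over Prkar2a (1.01). For 11 of the pathway genes named above, the log2 fold change kept its sign without Gli3+/+ replicate 3, an alternative also chosen after seeing the data. Other pathway genes did not all keep theirs. Among those that turned, Gpr3 went from -0.86 to 0.50, Csnk1d from -0.15 to 0.09 and Ttc21b from 0.08 to -0.14. The planned comparisons with ASCs, and their alternatives, were not run. The low counts of Prkar1b (40 to 85 per library) and Akap5 (75 to 184) limit what could be detected for them.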
